A study of Mus musculus with 5 samples.

Results

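The 9 genes examined here carry the corticotropin releasing hormone (CRH) and corticosteroid signals of the stress axis: the receptors Crhr1 and Crhr2, the binding protein Crhbp, the corticosteroid receptors Nr3c1 and Nr3c2, the glucocorticoid targets Fkbp5, Sgk1 and Tsc22d3, and the enzyme Hsd11b1. They were taken by gene name from a table of 15093 genes, which held all 9. Ribosome-bound RNA of Drd2-expressing neurons was purified from bilateral 1 mm punches centred on the central amygdala (CeA) of adult Drd2-TRAP mice. All mice of both groups carried a Drd2-Cre transgene and a Rosa26 allele that expresses an EGFP-tagged ribosomal protein, Rpl10a, after Cre has acted, so the tag marks any cell in the punch in which the Drd2 promoter of the transgene has driven Cre. The 3 libraries written FC (replicates 2, 3 and 4) came from fear conditioned mice and the 2 written HC (replicates 6 and 7) from control mice, each library a pool of 3 animals taken 2 h after the session. The labels call the controls home cage animals and place the collection after extinction, whereas the text of the study places it after conditioning. That text describes controls exposed to the training environment, and more exactly to the tone in the chamber without a shock. The exact control treatment is therefore uncertain.

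CRH is the peptide with which the brain starts the hormonal response to stress, and it is also made by neurons of the central amygdala. It acts through CRHR1 and, with its urocortin relatives, through CRHR2, both of which couple to G proteins that raise cyclic AMP, while the binding protein CRHBP holds the peptide away from its receptors. At the end of the axis the adrenal glands release corticosterone, which binds the glucocorticoid receptor (NR3C1) and, with higher affinity, the mineralocorticoid receptor (NR3C2). The liganded receptors leave their chaperones for the nucleus and raise the transcription of genes such as Fkbp5, Sgk1 and Tsc22d3.

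The libraries held between 19605318 and 27937520 reads on genes, recovered as whole reads from the deposited values, which are CPM (reads scaled to 1000000 by the effective size of each library) and are not divided by gene length. The HC pair stood apart in spread. The median SD of log2(value + 1) over 13560 genes was 0.23 in FC and 0.77 in HC, and HC replicate 7 had 2681 genes at 0 against 159 to 976 in the other 4 libraries. Drd2 was read in every library (326, 375 and 555 CPM in FC, 128 and 262 in HC). The summed value of 12 striatal projection neuron markers ran from 23421 to 26024 in FC and from 8990 to 15125 in HC, and those of 9 astrocyte markers from 521 to 710 in FC and from 1594 to 2436 in HC, of 10 oligodendrocyte markers from 1329 to 2827 and from 2899 to 5541, and of 10 choroid plexus and ependymal markers from 59.7 to 112 and from 1016 to 1418. Central amygdala neuron markers summed to 184 to 334 in FC and 340 to 561 in HC, interneuron markers to 170 to 312 and 408 to 543, and pallial neuron markers to 51.1 to 210 and 309 to 370. Of 11 marker lists, the summed value was higher in FC without overlap for 1 (striatal) and lower for 9, and only the microglial sum overlapped. Most of the choroid plexus and ependymal sum in HC was 1 gene, Ttr (0.348 to 22.1 in FC, 913 and 1320 in HC). In FC most of it was Clic6, which overlapped (50.9 to 77.2 in FC, 51.1 and 64.2 in HC). Of the 7 genes of that list that were tested, 3 lay below both HC libraries and 0 above (16.1% and 20.2% of all genes tested did). The part of these marker differences in the results below was not tested. The sums come from pooled pull-down RNA, in which fewer cells of a type, less RNA per cell and other sources of a difference cannot be told apart.

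Limma on log2(value + 1) called none of the 13560 genes (0%) at an adjusted p under 0.05 with a log2 fold change above 0.5 in size, and hence none of the 9. No adjusted p fell below 0.197. Unadjusted, 9.49% of genes had p under 0.05 and were higher in FC and 7.32% were lower, and of the 9 genes Crhr2 alone passed, lower in FC. The 3 FC libraries lay above both HC libraries for 20.2% of all genes and below both for 16.1%. Among the 9 genes, 1 (Fkbp5) lay above and 3 (Crhr2, Crhbp and Hsd11b1) lay below. DESeq2 on the recovered reads, which called 1128 of 15093 genes (7.47%), and edgeR, which called 0 of 14489 (2404 at an unadjusted p under 0.05), called none of the 9 either.

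**Figure D1:**
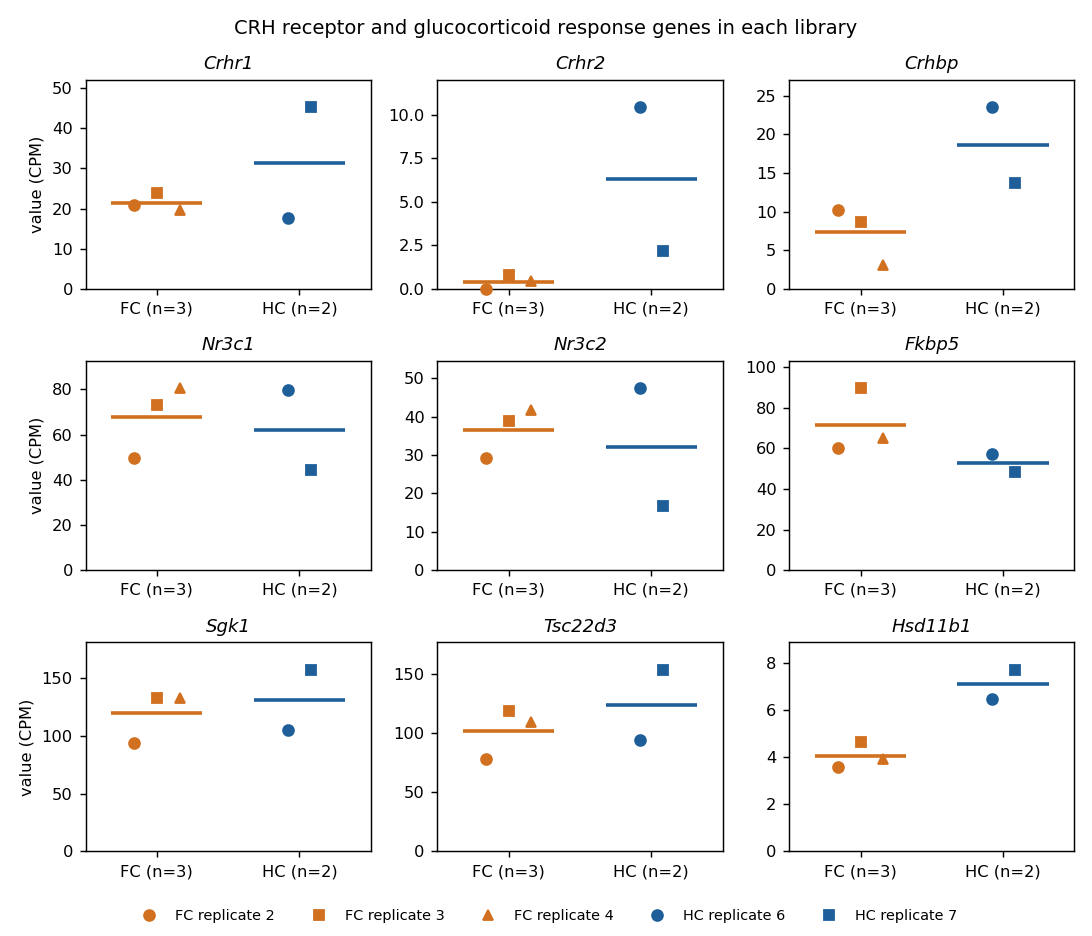
Value of each gene in CPM (y axis, from 0 in each panel) in the 3 FC and 2 HC libraries; points are libraries and lines are group means. The groups do not overlap for Crhr2, Crhbp, Fkbp5 and Hsd11b1, and the HC pair lies far apart for Crhr1, Crhr2 and Nr3c2.

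Crhr1, the main CRH receptor of the forebrain, was read at 20.8, 23.9 and 19.8 CPM in FC replicates 2, 3 and 4 and at 17.5 and 45.3 in HC replicates 6 and 7. The HC libraries lay on either side of all 3 FC libraries, 2.58-fold apart, while the FC libraries were within 1.21-fold. The log2 fold change was -0.38 (SE 0.49, 95% interval -1.57 to 0.80, limma adjusted p = 0.708). Its direction came from HC replicate 7, without which it was 0.28. Without HC replicate 6 it was -1.04 and the gene was called (limma adjusted p = 0.00995), as were 60.5% of all genes with that library left out.

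Crhr2, the receptor that urocortins prefer, had the lowest level per length of the 9. FC replicate 2 had 0 reads, which at this depth allows a value of up to 0.142, and FC replicates 3 and 4 had 19 and 9 reads (0.791 and 0.447 CPM). HC replicate 6 had 313 reads (10.5) and HC replicate 7 had 41 (2.16). All 3 FC libraries were below both HC libraries, and the HC libraries differed 4.83-fold from each other. The log2 fold change of -2.13 (SE 0.72, 95% interval -3.87 to -0.39) had an unadjusted limma p of 0.0240 and an adjusted p of 0.242. The log2 fold change was -3.74 with a pseudocount of 0.1 in place of 1, -3.88 in edgeR (adjusted p = 0.336) and -3.93 in DESeq2 (adjusted p = 0.171). Without HC replicate 7 the gene was called (log2 fold change -3.06, limma adjusted p = 0.00403), as were 27.5% of all genes. Without HC replicate 6, the library with 313 reads, its mean fell below 1 and it was not tested. The summed choroid plexus markers were among the 9 of 11 marker sums lower in FC. That sum, most of it Ttr, was 1016 in HC replicate 6 and 1418 in HC replicate 7, the reverse of the order of Crhr2. The single markers were divided. Ttr, Kl, Clic6 and Foxj1 were higher in HC replicate 7. Kcnj13, Folr1, Aqp1, Otx2, Ccdc153 and Enkur were higher in HC replicate 6, as Crhr2 was. A link was not tested.

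Crhbp, the secreted protein that binds CRH and urocortin, was read at 10.2, 8.66 and 3.13 CPM in FC and at 23.5 and 13.8 in HC. The groups did not overlap, with FC replicate 4 the lowest library. The difference was -1.32 on the log2 scale (SE 0.65, 95% interval -2.88 to 0.25, limma adjusted p = 0.360) and kept its direction when any 1 library was left out. The summed markers of interneurons, central amygdala neurons and pallial neurons were among the 9 of 11 marker sums lower in FC. In HC replicates 6 and 7 those sums were 408 and 543, 340 and 561, and 370 and 309. Crhbp, higher in HC replicate 6, shared its order there with the pallial sum only. A link was not tested.

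The ratio of Crhr1 to Crhr2 was 30.3 and 44.2 in FC replicates 3 and 4, 1.68 in HC replicate 6 and 21.0 in HC replicate 7. FC replicate 2 had no Crhr2 read, and with the 3 reads that a count of 0 allows its ratio was at least 146. Both HC libraries were thus below all FC libraries, HC replicate 6 by far the more. On the log2 scale with 1 added to each value, the mean difference was 1.75 with an exact permutation p of 0.3 (0.667 adjusted over 4 ratios), and HC replicate 7 (3.87) then fell among the FC libraries (3.80 and 3.84, and 4.45 for FC replicate 2, a value set by the added 1). The difference was 3.35 with 0.1 added, 0.16 without HC replicate 6 and 3.34 without HC replicate 7. For Crhbp against Crhr1 the log2 ratio was -0.96, -1.37 and -2.33 in FC, 0.41 in HC replicate 6 and -1.65 in HC replicate 7, and the difference of -0.93 had an exact permutation p of 0.5 and was 0.10 without HC replicate 6.

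Nr3c1, the glucocorticoid receptor, was read at 49.8, 72.9 and 80.4 CPM in FC and at 79.5 and 44.2 in HC. HC replicate 6 lay between the highest FC libraries and HC replicate 7 lay below all 3. The log2 fold change was 0.16 (SE 0.37, 95% interval -0.73 to 1.05, limma adjusted p = 0.844), and it was -0.26 without HC replicate 7. Nr3c2, the mineralocorticoid receptor, had the same order of libraries within each group, with 29.3, 38.9 and 41.7 in FC and 47.4 and 16.8 in HC. Here the HC pair, 2.82-fold apart, lay on either side of all FC libraries. Its log2 fold change was 0.34 (SE 0.50, 95% interval -0.86 to 1.54, limma adjusted p = 0.749), and without HC replicate 6 it was 1.06 and called (limma adjusted p = 0.0143), among the 60.5% of genes called there, whereas without HC replicate 7 it was -0.38. The log2 ratio of Nr3c1 to Nr3c2 was 0.75, 0.89 and 0.93 in FC and 0.74 and 1.34 in HC, a difference of -0.18 (exact permutation p = 0.7) that was 0.12 without HC replicate 7.

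Fkbp5, an FK506-binding co-chaperone that lowers the affinity of the glucocorticoid receptor for its hormone, was the only one of the 9 genes whose FC libraries lay above both HC libraries. It was read at 60.2, 89.5 and 64.9 CPM in FC and at 56.9 and 48.1 in HC. FC replicate 2 exceeded HC replicate 6 by little. The log2 fold change was 0.42 (SE 0.29, 95% interval -0.27 to 1.12, limma adjusted p = 0.484). Set against its receptor, the log2 ratio of Fkbp5 to Nr3c1 was 0.27, 0.29 and -0.30 in FC and -0.48 and 0.12 in HC, so the groups overlapped (difference 0.26, exact permutation p = 0.5, and -0.03 without HC replicate 6).

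Sgk1, a kinase that controls ion channels and transporters, had the highest mean level per length of the 9. It was read at 93.7, 132.6 and 132.9 CPM in FC and at 105.3 and 157.2 in HC. The groups overlapped, and the log2 fold change was -0.12 (SE 0.29, 95% interval -0.83 to 0.58, limma adjusted p = 0.850). It was 0.17 without HC replicate 7 and 0.04 without FC replicate 2. Tsc22d3 encodes GILZ, a leucine zipper protein that mediates anti-inflammatory effects of glucocorticoids. It was read at 77.8, 118.2 and 109.1 in FC and at 93.7 and 153.4 in HC, with a log2 fold change of -0.26 (SE 0.32, 95% interval -1.03 to 0.52, limma adjusted p = 0.702), and 0.09 without HC replicate 7. In both genes FC replicate 2 was the lowest library and HC replicate 7 the highest. The genes whose profile over the 5 libraries was most like that of Sgk1, among 9275 genes with a mean of at least 10, were Accn2, Il1rapl1 and Pik3ca (root mean square difference of centred log2 values 0.0336, 0.0381 and 0.0439).

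Sgk1 was the only one of the 8 genes with a RefSeq promoter entry (15 promoters, GRCm38.p6) that held the letters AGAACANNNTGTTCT, a full palindromic glucocorticoid response element. Each entry covers only the 250 bases before a start and a short stretch after it, and Sgk1 had 6 of the 15. Sequence farther upstream or within the genes was not searched, so a gene without a match may hold an element elsewhere. The 250 bases before that start, 1 of 6 listed for the gene, lie on the + strand at chr10:21993640-21993889 and are shown because the receptor's binding letters are in them, in capitals at chr10:21993701-21993715, 189 bases before the start:
Sgk1: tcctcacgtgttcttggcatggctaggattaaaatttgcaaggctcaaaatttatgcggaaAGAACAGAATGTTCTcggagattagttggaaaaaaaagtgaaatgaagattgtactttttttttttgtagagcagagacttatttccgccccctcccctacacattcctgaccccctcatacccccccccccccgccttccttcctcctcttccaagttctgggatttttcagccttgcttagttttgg
Of all 32851 promoters, 3 held these letters (0.00913%). The shorter core GNACANNNTGTNC, which overlaps the full element, was in 0.475% of all promoters, in that 1 member promoter, and in 5 of 46 promoters of the glucocorticoid response genes listed below (of Fam107a, Map3k6, Mt1 and Txnip). None of those 46 held the full element. The cyclic AMP response element TGACGTCA was in 1.79% of all promoters, in 0 of the 15 promoters of these 8 genes and in 3 of the 46 (of Arl4d, Dusp1 and Errfi1). All 3 motifs read the same on both strands. They were chosen after the Sgk1 sequence had been seen, and a match describes letters only. Sgk1 itself overlapped between the groups, as given above.

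Hsd11b1, the enzyme that regenerates active corticosterone inside cells, was read at 3.56, 4.62 and 3.92 CPM in FC and at 6.44 and 7.70 in HC. The FC libraries lay below both HC libraries, and the SD was 0.54 CPM in FC (n = 3) and 0.89 in HC (n = 2). The log2 fold change was -0.68 (SE 0.53, 95% interval -1.96 to 0.60, limma adjusted p = 0.534). The summed astrocyte markers were among the 9 of 11 marker sums lower in FC, at 1594 in HC replicate 6 and 2436 in HC replicate 7. Of these markers Slc1a2, Gja1 and Gfap had that order of HC libraries, and the others had the reverse. A link was not tested.

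**Figure D2:**
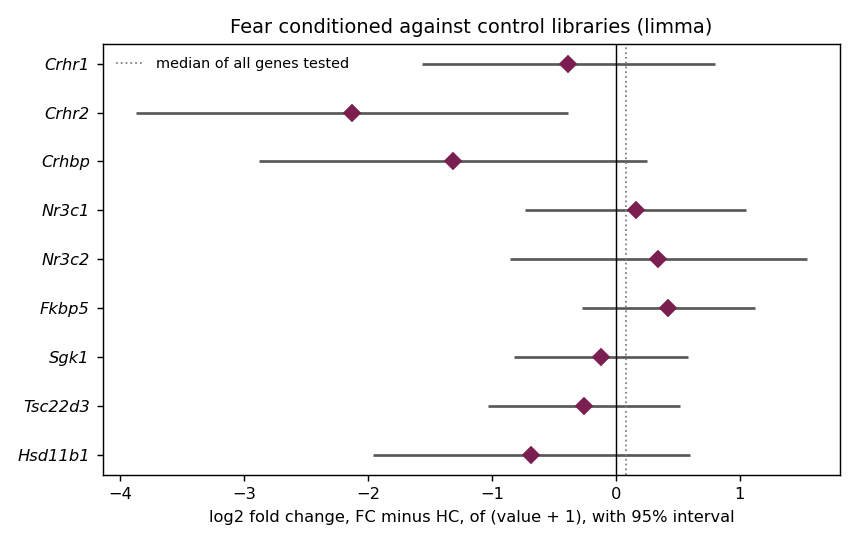
Log2 fold change (x axis, FC minus HC, of value + 1) of each gene with its 95% interval from limma; the dotted line is the median of all genes tested, 0.08. The interval leaves out 0 for Crhr2 and includes it for the other 8.

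Of the 9 log2 fold changes 6 were below 0 and 3 above, with a median of -0.26 against 0.08 over all genes tested. HC replicate 7 was the highest library for 4 genes and the lowest for 3, and the HC pair spanned all 3 FC libraries for 2 (Crhr1 and Nr3c2). Over single genes the exact permutation test of 3 against 2 libraries can give no p below 0.1, and it gave 0.1 for Crhr2 and Hsd11b1, 0.2 for Crhbp and Fkbp5 and 0.6 to 0.7 for the others.

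**Figure D3:**
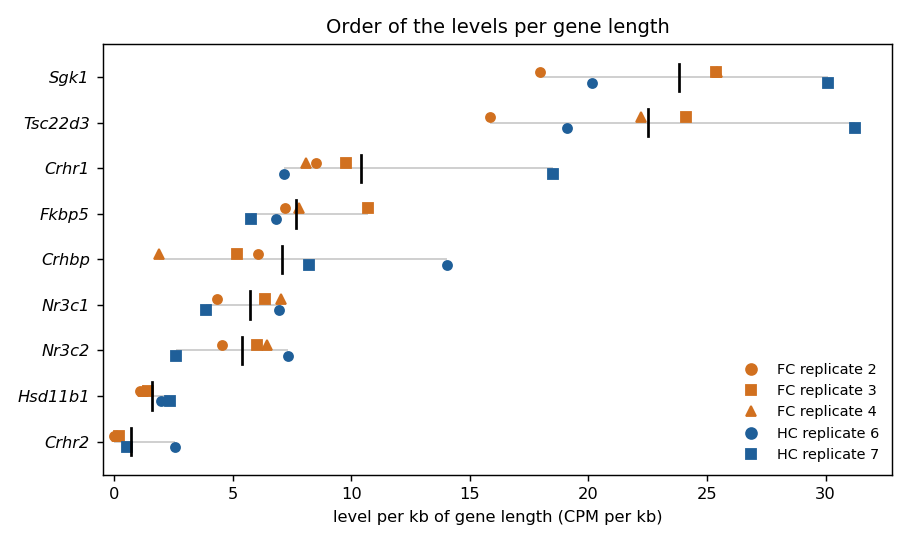
Level in CPM per kb of gene length (x axis) of each gene in each library (points), with the range (grey line) and the mean of the 5 libraries (black bar). Sgk1 and Tsc22d3 stand at the top, and Hsd11b1 and Crhr2 at the bottom; the points of Sgk1 in FC replicates 3 and 4 coincide.

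Divided by gene length, the mean over the 5 libraries was 23.8 CPM per kb for Sgk1, 22.5 for Tsc22d3, 10.4 for Crhr1, 7.65 for Fkbp5, 7.06 for Crhbp, 5.71 for Nr3c1, 5.39 for Nr3c2, 1.60 for Hsd11b1 and 0.683 for Crhr2. Tsc22d3 was above Crhr1 and Nr3c2 above Hsd11b1 in all 5 libraries. Sgk1 exceeded Tsc22d3, Crhr1 exceeded Fkbp5, and Hsd11b1 exceeded Crhr2 in 4 of 5, while Fkbp5 led Crhbp, Crhbp led Nr3c1 and Nr3c1 led Nr3c2 in 3 of 5, so these neighbours were not separated by their spread.

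**Figure D4:**
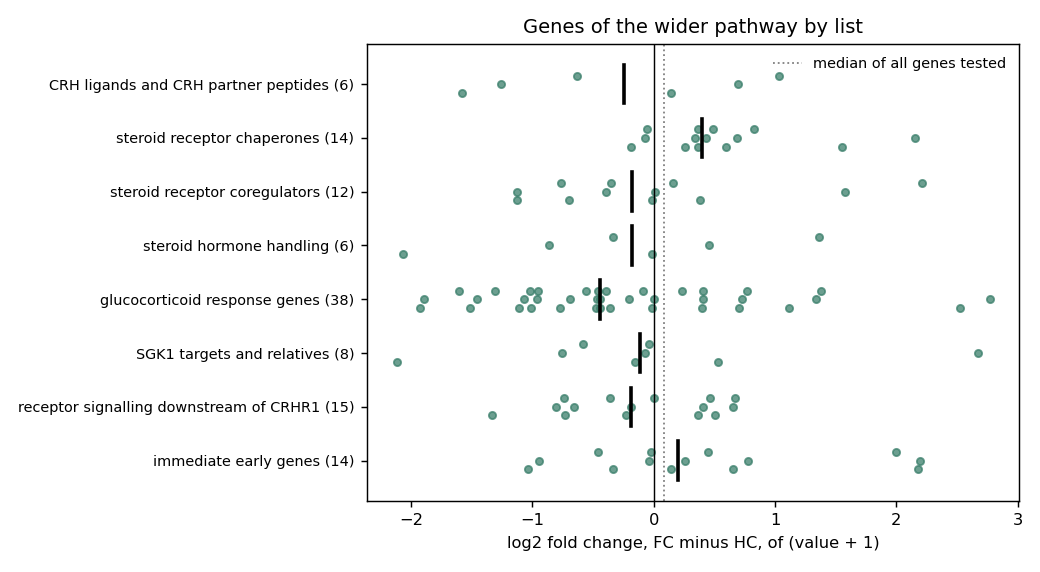
Log2 fold change (x axis, FC minus HC, of value + 1) of each tested gene (points) in 8 lists of the wider pathway, with the number tested after each name; black bars are list medians and the dotted line the median of all genes tested. The chaperones lie mostly above 0, and the glucocorticoid response genes mostly below.

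Limma called none of the genes in 8 lists of the wider pathway. The counts of genes above or below both HC libraries in each list stand against 20.2% above and 16.1% below over all genes tested. With 1 library left out, the median of a list could move, and its range is given in each case. Among peptides and receptors that work beside CRH, 6 were tested, with 0 above and 3 below both HC libraries (Avp, Oxtr and Adcyap1r1). The median log2 fold change of the 6 was -0.24 (range -0.80 to -0.09), but 0.19 with a pseudocount of 0.1 in place of 1. Crh itself was uneven, at 33.7, 7.33 and 14.5 CPM in FC and 29.9 and 1.11 in HC (log2 fold change 1.03, SE 1.22). Adcyap1r1, the PACAP receptor, was at 42.2, 46.7 and 43.2 in FC and 111 and 102 in HC, with no overlap (log2 fold change -1.26, SE 0.24, limma adjusted p = 0.197). Oxtr, the oxytocin receptor, was at 4.87 to 7.97 in FC and at 8.65 and 11.2 in HC. Ucn, Ucn2 and Avpr1b had no row of that name and were not analysed here.

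The 14 chaperones and co-chaperones of steroid receptors had a median of 0.40 (range 0.41 to 0.47), and 10 of 14 lay above both HC libraries (20.2% of all genes did) and 1 below. Hsp90ab1, the constitutive HSP90, was at 2372, 1925 and 2005 CPM in FC and at 1433 and 1908 in HC (log2 fold change 0.34, SE 0.27). Hspa8, the constitutive HSP70, was at 1371, 1791 and 1263 in FC and at 1242 and 940 in HC (log2 fold change 0.43, SE 0.28). Hsp90aa1 overlapped, at 492 to 790 in FC and 514 and 525 in HC. Of the 12 coregulators, 2 lay above and 2 below, with a median of -0.18 (range -0.27 to 0.01, above 0 only without HC replicate 6). Ncor1, a corepressor, was the most abundant and overlapped (271 to 277 in FC, 216 and 279 in HC), as did Ncoa1, a coactivator (79.7 to 96.9 in FC, 77.4 and 171 in HC), while Smarca4, the ATPase of a chromatin remodeller, lay above (134 to 153 in FC, 103 and 116 in HC). Among 6 genes of steroid hormone handling, 1 lay above and 0 below, with a median of -0.18 (range -0.36 to 0.12, above 0 only without HC replicate 6). Cyp7b1, a steroid hydroxylase (7.45 to 13.0 in FC, 9.97 and 14.8 in HC), Srd5a1, a 5-alpha-reductase (5.66 to 6.91 in FC, 4.85 and 8.42 in HC), and Abcb1a, an efflux pump (1.12 to 2.94 in FC, 0.634 and 17.9 in HC), all overlapped. Hsd11b2, which inactivates corticosterone and was picked after its values were seen, was at 17.7 in HC replicate 7 and at 0 to 0.0993 in the other 4 libraries.

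The list of 38 tested glucocorticoid response genes held 5 above and 9 below both HC libraries (background 20.2% and 16.1%), and 25 of the 38 log2 fold changes were below 0, with a median of -0.44. That median was 0.08 without HC replicate 7 and -0.82 without HC replicate 6. Klf9, a transcription factor, was at 238, 475 and 410 CPM in FC and at 159 and 295 in HC (log2 fold change 0.72, SE 0.40). Mt1, a metallothionein, was at 209, 157 and 210 in FC and at 148 and 468 in HC (log2 fold change -0.47, SE 0.48). Bcl2l1, an inhibitor of apoptosis, was at 178, 221 and 185 in FC and at 183 and 77.1 in HC (log2 fold change 0.70, SE 0.38). DESeq2 called 5 of the 39 listed genes, against 7.47% of all genes. Of these, Fam107a (43.1, 42.6 and 43.9 in FC, 115 and 137 in HC), Klf15 (11.99, 18.2 and 17.4 in FC, 53.2 and 72.6 in HC), Slc2a1, a glucose transporter (28.4, 13.8 and 22.2 in FC, 57.4 and 59.2 in HC), and Bcl6, a repressor (2.89, 3.29 and 3.23 in FC, 11.6 in both HC libraries), lay below both HC libraries, and Nedd9, a scaffold protein, lay above (4.27, 6.04 and 8.69 in FC, 0.0334 and 0.0527 in HC). Each of the HC values of Nedd9 was 1 read. These 5 genes were named after their values were seen. The 9 astrocyte markers were lower in FC in 8 of 9 log2 fold changes, with a median of -0.88. Other marker lists had medians as low or lower. These were oligodendrocytes (-0.88), endothelial and mural cells (-0.92), interneurons (-0.97), pallial neurons (-1.21) and choroid plexus and ependyma (-1.44). The striatal list went the other way (1.19). A link of any of these lists to the response genes was not tested.

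For the 3 lists that follow, the background was again 20.2% of all genes above and 16.1% below. Of 8 SGK1 targets and relatives, 2 lay above and 2 below, with a median of -0.11 (range -0.30 to -0.06). Ndrg4 lay above both HC libraries (3256, 5238 and 3791 in FC, 2622 and 2947 in HC), Ndrg2, an SGK1 substrate, below (145 to 261 in FC, 278 and 347 in HC), and Nedd4l, a ubiquitin ligase that SGK1 phosphorylates, overlapped (141 to 216 in FC, 146 and 246 in HC). Of 15 genes of signalling downstream of CRHR1, 3 lay above and 4 below, with a median of -0.19 (range -0.36 to -0.01). Gnal, the G protein alpha subunit of striatal neurons, lay above (483 to 886 in FC, 425 and 459 in HC), while Prkacb, a catalytic subunit of protein kinase A (449 to 765 in FC, 762 and 814 in HC), and Adcy5, the striatal adenylyl cyclase (558 to 863 in FC, 396 and 686 in HC), overlapped. Striatal markers, a list that itself holds Adcy5, were higher in FC by a median of 1.19, and a link was not tested. Of 14 immediate early genes, 3 lay above and 1 below, with a median of 0.20 that was -0.24 without HC replicate 6 and 0.85 without HC replicate 7. Egr1 (335 to 474 in FC, 155 and 395 in HC), Junb (107 to 217 in FC, 117 and 123 in HC) and Nr4a1 (75.6 to 197 in FC, 79.0 and 183 in HC) overlapped.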

How the data were processed

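The authors pooled 3 animals per library, made libraries with SMARTer and Nextera XT kits and sequenced them on a HiSeq 1000. The study's methods name Tuxedo DESeq software, and the submitters' processing notes list DESeq and the build mm8; which aligner and gene counter were run, and their versions, are not given in the sources used here, nor whether strand was used in counting. Reads of Crhr1, Nr3c2, Fkbp5 and Sgk1 may be shared with overlapping predicted genes of RefSeq. The authors deposited 1 signal value for each gene in each library, as CPM (reads scaled to 1000000 by the effective size of a library). Every value was a whole multiple of 1 read (100% within a tolerance of 0.01), so reads were recovered for count tests.

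Groups came from the labels. The 13560 genes with a mean of at least 1 were tested with limma 3.58.1 (trend) on log2(value + 1), and fold changes are on that scale, which understates those of low genes. Alternatives were edgeR 4.0.16, DESeq2 1.42.0, other filters, scalings and pseudocounts, and leaving out each library. Nothing says that the pools are separate cohorts, so p-values measure the spread between these pools. Scripts were tested on simulated counts with large changes and the same spread in both groups. The groups here differ in spread, so that test does not measure power or error in these data.

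The 9 genes and the lists were chosen with earlier results of these data known. In each list the called genes, or where none was called the 3 with the highest mean, were named, together with the 3 genes most like the highest of the 9 per length. The exact two-sided permutation p is the share of the 10 splits whose absolute difference of mean log2 values is at least that observed. It was taken after a first definition, the doubled one-sided p, had been computed and seen. That definition cannot go below 0.2, and gave 0.2 to 0.8 for the 9 genes and 0.4 to 0.8 for the 4 ratios. No call depends on the choice, since neither can pass 0.05.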

Additional observations from a re-analysis of the deposited data

How the results depend on the processing

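No paired analysis was run, because the labels and the study's methods give no pairing of FC with HC libraries. None of 13560 genes was called by limma, nor under the other pseudocount, filters, quantile scaling or edgeR settings. DESeq2 called 1128 genes, of which 5 glucocorticoid response genes. Leaving out 1 library gave 0 to 8025 genes called, 0 to 2 of the 9 genes, 0 to 23 response genes and 4 to 9 of the 9 genes without overlap. Without HC replicate 6 the counts were 8025, 2 (Crhr1 and Nr3c2), 23 and 9, where 87.5% of all genes did not overlap. Without HC replicate 7 they were 3722, 1 (Crhr2), 12 and 6 (77.9% of all genes did not overlap), and without FC replicate 3 a single gene, 1, was called. With 1 HC library left its spread is assumed to be that of the FC libraries, which vary less, so these counts are not a firmer result.

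Of 115 alternative fold changes of the 9 genes, 6 reversed, in 5 genes, all of them on leaving out 1 library. Over those settings Crhr1 ran from -1.04 to 0.28, Nr3c1 from -0.26 to 0.58, Nr3c2 from -0.38 to 1.06, Sgk1 from -0.41 to 0.17 and Tsc22d3 from -0.61 to 0.09; the other 4 genes kept 1 direction under every alternative that gave a value. Crhr2 ran from -3.93 to -1.90 over all alternatives that tested it, and was not tested where each library needed a value of 1 nor without HC replicate 6. The log2 ratio of Crhr1 to Crhr2 was 3.35 with a pseudocount of 0.1 and ran from 0.16 to 3.34 with 1 library left out. The log2 ratio of Crhbp to Crhr1 ran from -1.96 to 0.10, that of Nr3c1 to Nr3c2 from -0.49 to 0.12 and that of Fkbp5 to Nr3c1 from -0.03 to 0.56. The median log2 fold change of all genes tested was 0.08 in limma, 0.03 with quantile scaling, -0.04 in edgeR and -0.11 in DESeq2, which also differ in model and genes tested. Crhr2 had 0 to 19 reads in FC, so its fold change rests on few reads.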
